A study of Mus musculus with 32 samples.

Results

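The cytosolic ribosomal protein genes of the mouse encode the protein components of the ribosome that translates nuclear messages. They were taken by name: all protein-coding genes whose symbol is Rpl or Rps followed by a number, with an optional letter or digit, together with Rpsa, Rplp0, Rplp1 and Rplp2. The ribosomal S6 kinases, whose symbols begin with Rps6k, were left out. The rule found 84 genes among the 74021 listed in the LAG-3-sorted and cord tables (74016 in the stage table), of which 33 encode small subunit and 51 large subunit proteins, the latter including the 3 stalk proteins. No measured value entered the rule.

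The ribosome has a small subunit, which decodes the message, and a large subunit, which joins amino acids. The stalk proteins Rplp0, Rplp1 and Rplp2 recruit translation factors to the large subunit, and Rpl5 and Rpl11 enter it bound to 5S ribosomal RNA. Most mammalian ribosomal protein messages begin with a short run of pyrimidines, the 5′ TOP motif, through which mTORC1 and LARP1 set how strongly they are translated. The proteins are made in near-equal numbers and used together, while a few genes have paralogs with their own tissue patterns, such as Rps27l beside Rps27, Rpl22l1 beside Rpl22, Rpl3l beside Rpl3 and Rpl39l beside Rpl39.

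RNA was sequenced from 32 libraries of mouse lumbar spinal cord material in 3 experiments on the SOD1G93A model of amyotrophic lateral sclerosis, whose mice carry a transgene with mutant human SOD1. In the first, CD11b+/CD45int microglia of P140 SOD1G93A mice were divided by surface LAG-3, an immune checkpoint receptor, giving a LAG-3-high and a LAG-3-low fraction, with microglia of non-transgenic mice (WT, age not given in the sources used here) as controls. In the second, microglia were sorted at the early (P120) and late (P140) symptomatic stages from SOD1G93A littermates that were LAG-3+/+ or LAG-3-/-, the latter homozygous for the targeted Lag3 allele Lag3tm1Doi. In the third, RNA came from whole lumbar cord of P140 SOD1G93A mice of both LAG-3 genotypes. There were 5 LAG-3-high, 5 LAG-3-low and 4 WT libraries, and 3 libraries in each stage and cord group. All groups except WT thus carry the SOD1G93A transgene, which the human SOD1 promoter drives and which is not confined to microglia, and the LAG-3-/- mice lack LAG-3 in all tissues. The labels do not say whether libraries of a group came from separate animals, so p-values measure the spread between these libraries, which may be technical in part.

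Libraries held 9403286 to 49512341 estimated counts, and comparisons were made within each experiment. Lag3 followed its labels, with 146 to 195 CPM (counts scaled to a common library total after edgeR's TMM factors) in LAG-3-high microglia, 34.7 to 57.7 in the LAG-3-low fraction and 0.506 to 9.97 in WT, and with at most 0.461 CPM in LAG-3-/- microglia against at least 24.4 in LAG-3+/+ microglia. LAG-3-/- cord kept 5.50 to 5.71 CPM against 43.4 to 74.4. Summed over 8 genes, microglia markers reached 15410 to 40190 CPM in the sorted libraries. Neutrophil markers, summed over 10 genes, reached 5957 to 70260 CPM in WT libraries and 22800 to 66280 CPM in the LAG-3-low fraction, against 1.21 to 7.32 CPM in the LAG-3-high fraction. They reached 1743 to 2580 CPM in P120 LAG-3+/+, 0.10 to 3.16 in P120 LAG-3-/-, 0.192 to 3467 in P140 LAG-3+/+ and 1.03 to 4608 in P140 LAG-3-/- microglia. In bulk libraries like these, fewer cells of a type and less RNA per cell cannot be told apart.

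The starts of a few of these genes are shown first, because the pyrimidine run that names TOP messages opens the message. Each line gives the 15 bases before and the 15 bases from an annotated start, from RefSeq on build GRCm38.p6, read along the gene, with the longest run of C and T in capitals.
Rpl35: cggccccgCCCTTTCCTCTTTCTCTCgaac
Rpl4: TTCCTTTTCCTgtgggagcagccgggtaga
Rplp2: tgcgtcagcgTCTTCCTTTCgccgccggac
Rps27l: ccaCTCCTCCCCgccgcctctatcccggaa
Rps2: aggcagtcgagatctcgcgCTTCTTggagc
Rpl7l1: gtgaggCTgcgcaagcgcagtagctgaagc
These were chosen because the comparisons turn on Rpl35, Rpl4, Rps27l, Rps2 and Rpl7l1, and because Rplp2 shows a run in the middle of its window. The windows lie at chr2:39005117-39005146 on the minus strand (Rpl35), chr9:64173372-64173401 on the plus strand (Rpl4), chr7:141447636-141447665 on the plus strand (Rplp2), chr9:66946071-66946100 on the plus strand (Rps27l), chr17:24720048-24720077 on the plus strand (Rps2) and chr17:46782642-46782671 on the minus strand (Rpl7l1). The run was 18 bases long in Rpl35, 11 in Rpl4, 10 in Rplp2, 9 in Rps27l, 6 in Rps2 and 2 in Rpl7l1. Another annotated start of Rps27l, not shown, had a longest run of 4. RefSeq starts were matched for 63 of the 84 genes. A run of at least 8 C or T fell in a window of 27 of the 63 genes, which is 42.9%, against 13.9% of all 27025 genes in the table. The motif CCGGAAG, searched on both strands, where the other strand reads CTTCCGG, was present in the 300 bases around the start of 26 of the 63 genes, which is 41.3%, against 9.9% of all genes. Both are descriptions of letters, not of binding or translation. The marked runs of Rpl4 and Rps27l end before the annotated start, and a run was counted anywhere in the window. A run counted here is thus not shown to open the message as a TOP motif does.

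The pair Rps27 and Rps27l shows how close paralogs can be and which reads can tell them apart. Their coding sequences, with the differing bases in capitals, were as follows.
Rps27: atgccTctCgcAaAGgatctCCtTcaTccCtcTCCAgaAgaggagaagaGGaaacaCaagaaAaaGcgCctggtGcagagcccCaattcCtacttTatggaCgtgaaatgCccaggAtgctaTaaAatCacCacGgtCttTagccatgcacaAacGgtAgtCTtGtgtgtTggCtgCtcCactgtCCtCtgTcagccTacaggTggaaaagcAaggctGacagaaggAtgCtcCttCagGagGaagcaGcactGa
Rps27l: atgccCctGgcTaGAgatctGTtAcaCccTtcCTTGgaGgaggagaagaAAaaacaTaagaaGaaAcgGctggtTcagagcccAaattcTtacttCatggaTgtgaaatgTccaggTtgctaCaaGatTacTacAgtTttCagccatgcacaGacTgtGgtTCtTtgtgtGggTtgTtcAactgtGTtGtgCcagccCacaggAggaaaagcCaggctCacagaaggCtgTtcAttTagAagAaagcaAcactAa
They are 255 bases each and differ at 61 positions, so that 76.1% of the bases are identical. Rps27 also has a copy, Rps27rt on chromosome 9, whose 255 coding bases are 100% identical to its own. Other pairs were 85.3% (Rpl39 and Rpl39l), 84.8% (Rpl10 and Rpl10l), 79.8% (Rps4x and Rps4l), 73.2% (Rpl3 and Rpl3l), 66.9% (Rpl22 and Rpl22l1) and 51.7% (Rpl7 and Rpl7l1) identical over their aligned coding sequences. Many members also have near-identical copies elsewhere in the genome, Rps27rt among them, between which the authors' quantification may divide reads. Counts on such copies came to 240% of those on Rpl10 and 151% of those on Rps12 in the LAG-3-sorted table, and to 850%, 1409% and 1745% of those on Rpl10, Rps12 and Rps27 in the cord table. In the stage table, counts on copies came to 187% of those on Rpl10 and 330% of those on Rps12. For Rps27 they came to 31.6% in the LAG-3-sorted and 32.4% in the stage table. Levels of these 3 genes are therefore uncertain.

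Per kilobase of coding sequence, the most abundant of these messages was Rpl41, which encodes the smallest ribosomal protein. Its coding sequence is 78 bases long with the stop codon, and is printed whole to show how short these messages can be.
Rpl41: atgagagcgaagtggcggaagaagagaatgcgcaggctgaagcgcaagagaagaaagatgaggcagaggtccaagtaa
Rpl41 averaged 4030 and 4179 CPM per coding kilobase in the tables of sorted fractions and of stages, and 3091 in the cord. It was followed by Rps29 (1929 and 2045) in the microglia tables, and by the stalk gene Rplp1 (1159) in the cord. Per kilobase of annotated transcript the order differed, with Rpl13 first in both microglia tables (653 and 694 CPM per kilobase) and Rplp1 first in the cord (725). In the LAG-3-sorted table, apart from Rpl10l, Rpl3l and Rpl39l, the lowest members were Rpl5 (33.9 CPM per coding kilobase), Rps4l (31.1) and Rpl12 (19.7), and in the cord Rps12 (30.5), Rps27 (25.6) and Rpl12 (23.9). Rpl10l was listed at 0 in all libraries. Rpl3l, the striated muscle paralog of Rpl3, averaged 0.267, 0.0638 and 1.13 CPM in the same order of tables, and Rpl39l, a testis paralog of Rpl39, averaged 0.279, 0.263 and 0.106 CPM. Most of the cord value of Rpl3l came from a single library, LAG-3-/- replicate 2, with 5.86 CPM, against 0.0430 to 0.40 in the other cord libraries. Rpl10l and Rpl3l passed the filter on low counts in no table and Rpl39l only in the stage table, so 81, 82 and 81 members were tested in the LAG-3-sorted, stage and cord tables. The 5 members with the highest CPM held 18.3%, 17.7% and 15.4% of all members' CPM.

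The share of all counts that fell on the 84 genes was small and depended on the group. In WT microglia it was 1.96%, 0.794%, 0.977% and 2.22%, in LAG-3-low microglia 1.01%, 0.910%, 0.857%, 0.969% and 1.04%, and in LAG-3-high microglia 1.36%, 1.26%, 1.26%, 1.29% and 1.33%. The LAG-3-high libraries all lay above the LAG-3-low libraries, whereas WT libraries fell both above and below all the others. By stage, the share was 1.40% to 1.54% in P120 LAG-3+/+, 0.994% to 1.498% in P120 LAG-3-/-, 1.27% to 1.64% in P140 LAG-3+/+ and 1.34% to 1.46% in P140 LAG-3-/- microglia, and all 4 ranges overlapped. In the cord it was 1.22%, 1.12% and 1.24% in LAG-3+/+ and 2.11%, 1.95% and 1.53% in LAG-3-/- mice, without overlap.

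**Figure D1:**
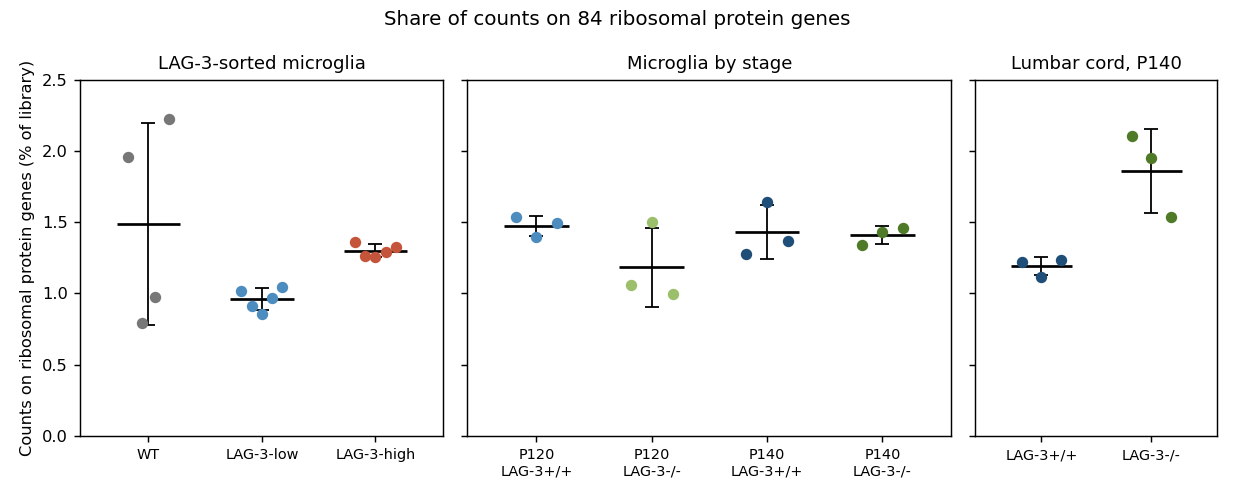
Counts on the 84 ribosomal protein genes as a percent of all counts of a library (vertical axis) by group, for the LAG-3-sorted microglia, the microglia by stage and the P140 cord. Points are libraries, lines are means and bars are SD. LAG-3-high libraries lie at 1.26% to 1.36% and LAG-3-low libraries at 0.857% to 1.04%, WT libraries spread from 0.794% to 2.22%, and LAG-3-/- cord lies above LAG-3+/+ cord.

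LAG-3-high microglia held more ribosomal protein messages than LAG-3-low microglia. Of 81 members tested, 11 rose and none fell at an adjusted p below 0.1 in edgeR's quasi-likelihood test over all genes, or 13.6%, against 1.59% of all genes called higher and 2.8% called lower. At an unadjusted p below 0.05, 50 members were higher and none lower, against 870 and 1118 of all 16508 genes. The estimate was above 0 for 80 of 81, with a median log2 fold change of 0.81 against -0.02 over all genes tested. By subunit, 5 of 33 small and 6 of 48 large subunit members were called, with medians of 0.79 and 0.82, and the difference between the subunits was not tested.

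Rps2, a small subunit protein at the entry of the mRNA channel, gave the smallest adjusted p. Its gene (ENSMUSG00000044533) lies on chromosome 17 at 24937080 to 24940904 of GRCm39, plus strand. It measured 384, 327, 374, 340 and 351 CPM in LAG-3-high and 189, 154, 188, 177 and 210 CPM in LAG-3-low libraries. All LAG-3-high libraries lay far above all LAG-3-low libraries, and the log2 fold change was 0.95 ± 0.17 (SE, adjusted p = 0.00694, edgeR). Rpl4, a large subunit protein, measured 690, 618, 611, 577 and 644 CPM in LAG-3-high and 358, 327, 287, 333 and 398 CPM in LAG-3-low libraries. The groups did not overlap either, and the log2 fold change was 0.88 ± 0.16 (adjusted p = 0.00831, edgeR). Rpl3, which lies near the peptidyl transferase centre, measured 488, 432, 424, 511 and 467 CPM against 274, 276, 223, 263 and 283 CPM, again without overlap (log2 fold change 0.81 ± 0.19, adjusted p = 0.0255, edgeR). Rps23, a decoding centre protein, rose by 1.03 ± 0.26 on the log2 scale (adjusted p = 0.0409, edgeR). Its call was lost in 4 of 10 fits with 1 library left out (adjusted p up to 0.117, edgeR). The others called were Rps3a1, Rpl14, Rplp0, Rps25, Rpl10, Rpl6 and Rps6, and the level of Rpl10 is uncertain because of its copies, as given above. Without overlap between the groups, 73 of 81 members were higher and none lower in LAG-3-high microglia, against 8.99% and 6.47% of all genes. With library totals in place of TMM factors this was 58, against 3.05% of all genes.

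Among the stalk genes only Rplp0 was called, at 0.81 ± 0.22 (adjusted p = 0.0611, edgeR). This call was lost in 9 of 10 fits with 1 library left out (adjusted p up to 0.1565, edgeR). Rplp1 measured 175, 156, 151, 166 and 179 CPM in LAG-3-high and 78.3, 75.2, 68.7, 79.6 and 89.0 CPM in LAG-3-low libraries, and its log2 fold change of 1.08 ± 0.38 did not pass (adjusted p = 0.186, edgeR). Rplp2 gave 1.09 ± 0.42 (adjusted p = 0.257, edgeR). The fold changes of Rplp1 and Rplp2 came with larger standard errors than that of Rplp0. In the fit over all 14 libraries, WT libraries count toward the estimate of the spread, and they ranged from 66.0 to 390 CPM for Rplp1. Fitted without WT, 76 of 81 members were called higher, against 23.7% of all genes called in either direction. For the 5S particle, Rpl5 gave 0.69 ± 0.37 and Rpl11 gave 0.88 ± 0.41, and neither was called. Rpsa, also known as a laminin receptor, gave 0.83 ± 0.29 and Rps27a, which is made as a fusion with ubiquitin, gave 0.50 ± 0.29, and neither was called. Rpl12, a stalk base protein at 6.87 to 13.9 CPM in these libraries, was the single member with a negative estimate (-0.32). The paralogs moved by less than their partners without being called, at 0.52 for Rps27l against 0.81 for Rps27, 0.44 for Rpl22l1 against 0.73 for Rpl22, 0.36 for Rpl7l1 against 0.88 for Rpl7 and 0.45 for Rps4l against 0.85 for Rps4x. The differences within pairs were not tested.

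The neutrophil and monocyte markers differed between these 2 fractions in the opposite direction, with monocyte markers at 1550 to 4429 CPM in LAG-3-low against 0.0667 to 6.27 CPM in LAG-3-high libraries, over 5 genes. Up to 8 of 10 neutrophil markers were at 0 in a LAG-3-high library, and none in any LAG-3-low library. Their part in the difference of the ribosomal protein genes was not tested. TMM factors were 0.830 to 0.915 in LAG-3-high and 1.07 to 1.17 in LAG-3-low libraries, so TMM scaling raised LAG-3-high relative to LAG-3-low values. Without it, the median log2 fold change was 0.43 over the members, of which 2 were called against 4.71% of all genes, and -0.40 over all genes. The call counts in this comparison ranged from 1 to 76 over all settings tried, always higher.

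LAG-3-high microglia and WT differed in few ribosomal protein genes, and the direction of the group's median depended on the WT libraries. Of 81 members, 4 rose and 1 fell in edgeR's test, or 4.94% and 1.23%, against 13.8% and 16.5% of all genes, and the median log2 fold change was -0.13 against -0.08 over all genes. The median ran from -0.36 without WT replicate 2 to 0.33 without WT replicate 4 and was -0.33 with library totals. Without WT replicate 2, 15 members were called (3 higher and 12 lower), and without WT replicate 4, 15 were called, all higher. The shares of all genes called in the fits without a WT replicate are not given here, so these counts do not single out the members. With the offsets for transcript or coding length and GC content described below, 35 and 16 were called, against 37.8% and 40.9% of all genes. Rps2 rose by 1.47 ± 0.19 (adjusted p = 0.000124, edgeR), from 134, 124, 86.3 and 165 CPM in WT to the levels given above, without overlap. Rpl3 rose by 0.78 ± 0.20 (adjusted p = 0.0135) and Rpl4 by 0.66 ± 0.18 (adjusted p = 0.0162, both edgeR), but with the coding length offset they stood at -0.43 and -0.46, and Rps2 at 0.40, none of them called. Rpl37a, a zinc finger protein of the large subunit, was called at 0.79 ± 0.32 (adjusted p = 0.0923, edgeR), but WT replicate 4 with 445 CPM lay within the LAG-3-high range of 359 to 449 CPM, and the estimate was -0.41 with the transcript length offset. Rps12, whose level is uncertain because of its copies, as given above, fell by 1.88 ± 0.67 (adjusted p = 0.0579, edgeR). Its WT values were 55.7, 15.1, 8.96 and 181 CPM against 20.7, 15.3, 11.9, 19.3 and 21.9 CPM in LAG-3-high libraries. The groups overlapped, and without WT replicate 4 the estimate was -0.57 and not called. Of the stalk genes, Rplp0 was at 0.30, Rplp1 at -0.38 and Rplp2 at -0.38, Rpl5 was at -0.31 and Rpl11 at -0.46, Rpsa was at -0.08 and Rps27a at 0.04, and none was called. Rps27l was at -0.90 (adjusted p = 0.118, edgeR) beside Rps27 at -0.18. Only Rps2, Rpl3 and Rpl4 were higher in all LAG-3-high than in all WT libraries, against 12.4% of all genes, and none was lower, against 8.54%.

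The spread among WT libraries differed between members. In WT, Rps2 ranged from 86.3 to 165, Rpl3 from 198 to 399 and Rpl4 from 303 to 534 CPM, whereas Rps3 ranged from 178 to 724, Rps4x from 57.9 to 477 and Rpl31 from 39.9 to 279 CPM. WT replicates 1 and 4 were the high libraries and replicates 2 and 3 the low ones for Rplp1, Rplp2, Rpl11, Rps3, Rps4x, Rpl31 and Rps12.

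LAG-3-low microglia held less of these messages than WT on average, and this difference rested on the WT libraries. Of 81 members, 37 fell and 1 rose in edgeR's test, or 45.7% and 1.23%, against 12.9% and 12% of all genes, and the median was -0.88 against 0.04 over all genes. The estimate was negative for 80 of 81. The LAG-3-high libraries also count toward the estimate of the spread in this fit. With only the groups compared, or with the replicate number as a block, far fewer members were called, as given below. Rps12 fell by 2.63 ± 0.68 (adjusted p = 0.0187), Rps4x, the X-linked form of eS4, by 1.62 ± 0.42 (adjusted p = 0.0188), Rps3, which also takes part in DNA repair, by 1.13 ± 0.30 (adjusted p = 0.0200) and Rpl31 by 1.55 ± 0.41 (adjusted p = 0.0218, all edgeR). The level of Rps12 is uncertain because of its copies, as given above. Rps3 measured 540, 178, 281 and 724 CPM in WT and 213, 198, 183, 198 and 193 CPM in LAG-3-low libraries. WT replicate 2 lay below every LAG-3-low library, and WT replicates 1 and 4 far above them. Rps4x measured 477, 57.9, 147 and 384 CPM in WT and 86.0, 91.2, 69.9, 103 and 83.6 CPM in LAG-3-low libraries, with the same WT library lowest. None of the 81 members had all LAG-3-low libraries below all WT libraries, against 5.94% of all genes, or all of them above, against 9.78%.

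Rplp1 (-1.46 ± 0.39, adjusted p = 0.0229), Rplp2 (-1.47 ± 0.44, adjusted p = 0.0365), Rpl11 (-1.34 ± 0.43, adjusted p = 0.0479), Rpl5 (-0.996 ± 0.388, adjusted p = 0.0907) and Rpsa (-0.91 ± 0.31, adjusted p = 0.0569) fell in LAG-3-low microglia in edgeR's test. Rplp0 (-0.51) and Rps27a (-0.46) were not called. Of the paralogs, Rps27l fell by 1.42 ± 0.40 (adjusted p = 0.0270, edgeR), while Rps27 at -0.98 (adjusted p = 0.122) and Rpl22l1 at -0.98 (adjusted p = 0.110) missed the threshold, the latter beside Rpl22 at -1.47 (adjusted p = 0.0519, all edgeR). Rps2 was the member that rose, by 0.52 ± 0.18 (adjusted p = 0.0638, edgeR), and Rpl3 was at -0.04. The call of Rps2 was lost in 4 of 9 fits with 1 library left out (adjusted p up to 0.131, edgeR), and with the coding length offset its estimate was -0.49. Without WT replicate 4 the count of members called was 13, without WT replicate 1 it was 16, without replicate 3 it was 60 and without replicate 2 it was 72, against 22.5%, 21%, 29% and 37.1% of all genes. WT libraries also differed in mitochondrially encoded counts, from 0.842% to 3.60% of the total, with replicates 1 and 4 highest at 2.99% and 3.60%. The part of RNA content or quality in this spread was not tested. LAG-3-high libraries enter 2 of these comparisons, as do WT and LAG-3-low libraries, so the 3 comparisons share libraries.

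**Figure D2:**
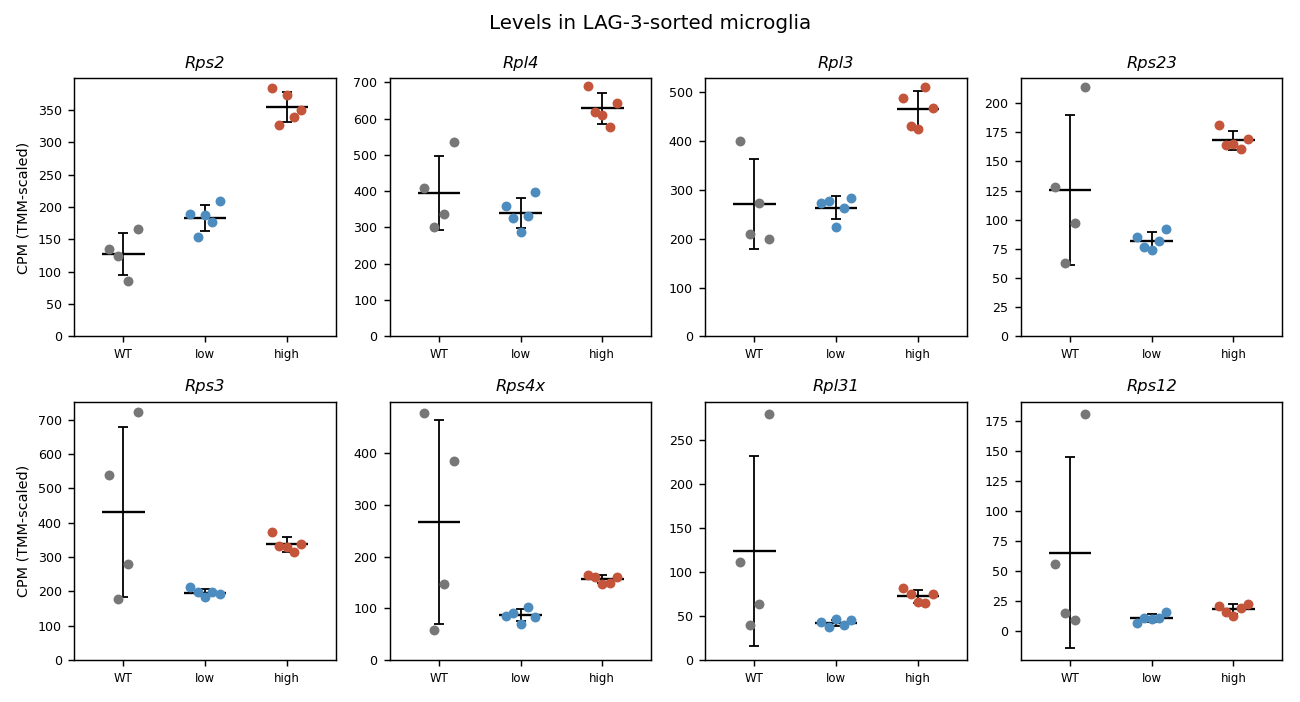
Levels of 8 ribosomal protein genes in microglia of WT mice and of both LAG-3 fractions, in TMM-scaled CPM on the vertical axis. Points are libraries, lines are means and bars are SD, and the axis of Rps12 runs below 0 because its WT bar does. Rps2, Rpl4 and Rpl3 are higher in every LAG-3-high library than in any other library, while Rps23, Rps3, Rps4x, Rpl31 and Rps12 have WT libraries both low and high.

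From P120 to P140 some ribosomal protein genes rose in LAG-3+/+ microglia with TMM scaling, while with library totals more fell than rose. Of 82 members, 20 rose and 1 fell in edgeR's test, or 24.4% and 1.22%, against 11.9% and 15.5% of all genes, and the median was 0.37 against -0.22 over all genes tested. Of the 33 small subunit members 9 rose and 1 fell, and of the 49 large subunit members 11 rose. Rps27l, which is known as a p53-induced gene, had the smallest adjusted p. It measured 77.5, 64.2 and 66.7 CPM at P120 and 162, 255 and 207 CPM at P140, without overlap. The log2 fold change was 1.58 ± 0.28 (adjusted p = 0.00641, edgeR). Its partner Rps27 measured 128, 142 and 160 CPM at P120 and 166, 248 and 194 CPM at P140, also without overlap, and its log2 fold change of 0.50 ± 0.22 was not called (adjusted p = 0.144, edgeR).

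Rpl7l1 showed the same order beside its partner. It measured 116, 122 and 105 CPM at P120 and 214, 254 and 290 CPM at P140 (log2 fold change 1.14 ± 0.22, adjusted p = 0.00786, edgeR). Rpl7 measured 352, 285 and 283 CPM at P120 and 215, 357 and 240 CPM at P140, with overlap, and gave -0.18. Rpl22l1 also rose, by 1.02 ± 0.29 (adjusted p = 0.0319, edgeR), with Rpl22 at -0.03. Rps4l gave 0.67 ± 0.47 beside Rps4x at -0.02, and neither was called. The differences within pairs were not tested.

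Rpl35, a large subunit protein near the exit of the peptide tunnel (ENSMUSG00000062997, chromosome 2 at 38891591 to 38895637 of GRCm39, minus strand), measured 170, 153 and 146 CPM at P120 and 342, 550 and 435 CPM at P140. These did not overlap, and the log2 fold change was 1.497 ± 0.304 (adjusted p = 0.00944, edgeR). Rps25, a small subunit protein known from initiation at viral internal ribosome entry sites, measured 285, 248 and 246 CPM at P120 and 458, 777 and 582 CPM at P140 (log2 fold change 1.22 ± 0.27, adjusted p = 0.0129, edgeR). Rps2 went the other way. It measured 414, 383 and 361 CPM at P120 and 201, 231 and 186 CPM at P140, also without overlap, and fell by 0.91 ± 0.24 on the log2 scale (adjusted p = 0.0242, edgeR). Of the stalk and 5S particle genes none was called, at 0.61 for Rplp0, 0.34 for Rplp1, 0.35 for Rplp2, -0.16 for Rpl5 and 0.39 for Rpl11. Rpsa gave -0.10 and Rps27a 0.38. Without overlap, 32 members were higher at P140, against 16.8% of all genes, and 1 was lower, against 25.4%.

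The direction depended on the scaling for many members. TMM factors were 1.06 to 1.16 in P120 and 0.734 to 0.855 in P140 LAG-3+/+ libraries, and with library totals in place of TMM factors 4 members rose and 10 fell (27.3% of all genes were called in either direction), with a median of -0.13 against -0.70 over all genes, while 12 members were higher and 17 lower without overlap, against 8.87% and 34.6% of all genes. Rps27l, Rpl35 and Rps2 kept their direction and their call without TMM factors, at 1.08, 0.99 and -1.40. Rps27 turned to -0.01.

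In LAG-3-/- microglia the members were also higher at P140 on average, but no gene of the table was called in edgeR's test, members included (0% of 18669 genes). The median was 0.50 against -0.03 over all genes, and at an unadjusted p below 0.05, 34 of 82 members were higher and none lower, against 1227 and 431 of all genes. With library totals the median was 0.23 against -0.29 over all genes, and with TMM factors it ran from 0.38 to 0.78 with 1 library left out, the highest without P120 LAG-3-/- replicate 2. DESeq2 called 5 members, all higher, against 2.76% of all genes. Rps27l measured 47.7, 82.1 and 52.2 CPM at P120 and 155, 133 and 88.4 CPM at P140, without overlap, and gave 1.05 ± 0.28 (adjusted p = 0.475, edgeR). Rpl35 gave 1.02. Rps2 measured 216, 375 and 207 CPM at P120 and 210, 268 and 304 CPM at P140 and gave -0.03. Of 82 members, 20 were higher at P140 without overlap, against 7.38% of all genes, and none was lower, against 7.37%. With library totals 11 were higher and 1 lower, against 4.08% and 12.2%.

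The stalk and 5S particle genes were spread around this median. The stalk genes gave 0.65 for Rplp0, 0.57 for Rplp1 and 0.74 for Rplp2, Rpl11 gave 0.22 and Rpl5 gave -0.08. Rpl7l1 gave 0.50 beside Rpl7 at 0.16, and Rpl22l1 gave 0.74 beside Rpl22 at 0.26. None of these was called, and the differences within pairs were not tested.

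LAG-3-/- microglia at P120 had estimates below LAG-3+/+ microglia for 80 of 82 members, with none called. The median was -0.41 against -0.01 over all genes. Over all genes, none was called higher and 0.0107% lower in edgeR's test. At an unadjusted p below 0.05, 10 members were lower and none higher, against 355 and 196 of all 18669 genes. DESeq2 called no member. LAG-3-/- replicate 2 stood apart from the other libraries of its group. It held 149 CPM of Rplp1 against 89.3 and 71.8 in replicates 1 and 3 and 162, 125 and 140 CPM in LAG-3+/+ libraries, and 375 CPM of Rps2 against 216 and 207. Without that library the median of the members was -0.68 with still none called, and without replicate 3 it was -0.26. Without overlap, 15 members were lower and none higher, against 6.63% and 4.85% of all genes. The most negative of the small groups were Rpsa (-0.60), Rplp2 (-0.59), Rplp0 (-0.54) and Rps4x (-0.51), while Rpl5 (-0.09), Rpl7l1 (-0.05) and Rps4l (-0.08) lay nearer 0. Neutrophil markers, given above, separate these groups in the same direction, and their part was not tested.

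At P140, Rpl7l1 was the single member called between genotypes. It measured 214, 254 and 290 CPM in LAG-3+/+ and 196, 127 and 145 CPM in LAG-3-/- microglia, without overlap, and fell by 0.69 ± 0.22 (adjusted p = 0.0918, edgeR). The call was lost in 4 of 6 fits with 1 library left out (without P140 LAG-3+/+ replicate 2 or 3 or LAG-3-/- replicate 2 or 3, adjusted p up to 0.283, edgeR), without the filter, with the replicate number as a block, with sex as a covariate, with library totals, with either length offset and with only the groups compared, while DESeq2 called 13 members lower, against 25.7% of all genes. Of all genes 3% were called lower and 7.22% higher. The members' median was -0.27 against 0.14 over all genes, and 0.05 against 0.47 with library totals in place of TMM factors. With TMM factors, 8 were lower and 1 higher at an unadjusted p below 0.05, against 1682 and 2813 of all 18669 genes. Rpl35 gave -0.87 (adjusted p = 0.114), Rps25 gave -0.77 (adjusted p = 0.119) and Rps27l gave -0.73 (adjusted p = 0.141, all edgeR). Rpl35 measured 338.8 CPM in LAG-3-/- replicate 1 against 219.1 and 166.5 CPM in replicates 2 and 3. Without LAG-3-/- replicate 1 the estimates were -1.19 for Rpl35, -0.98 for Rps25 and -0.90 for Rps27l. With 1 library left out, Rpl35 and Rps25 were each called in 2 of 6 fits and Rps27l in 1 of 6. The P140 LAG-3+/+ libraries enter both this comparison and that between stages. Without overlap, 15 members were lower and 1 higher, against 8.92% and 12.1% of all genes. The member higher in every LAG-3-/- library was Rpl39l, seen in each LAG-3-/- library (0.335 to 0.789 CPM) and at 0 in each LAG-3+/+ library, too few counts for a fold change.

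The genotype-by-stage interaction tests whether the change from P120 to P140 differed between genotypes. None of 82 members was called in edgeR's test or by DESeq2, against 0.161% of all genes called higher and 0.0107% lower. The interaction had a median of 0.11 over the members and 0.18 over all genes, and the members' median was 0.36 with library totals, close to 0 with RLE size factors (-0.0036) and -0.02 to 0.45 with 1 library left out, the lowest without P140 LAG-3+/+ replicate 1 and the highest without P120 LAG-3-/- replicate 2. Rps2 gave 0.87 ± 0.34 (adjusted p = 0.297), the single member with an unadjusted p below 0.05, and Rpl7l1 gave -0.64 ± 0.31 (adjusted p = 0.385, both edgeR). Of all 18669 genes, 1855 were higher and 686 lower at that unadjusted p. For Rps27l, the interaction was -0.53 ± 0.39 (adjusted p = 0.577, edgeR). A different course of the ribosomal protein genes in LAG-3-/- microglia was thus not detectable with 3 libraries a group.

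**Figure D3:**
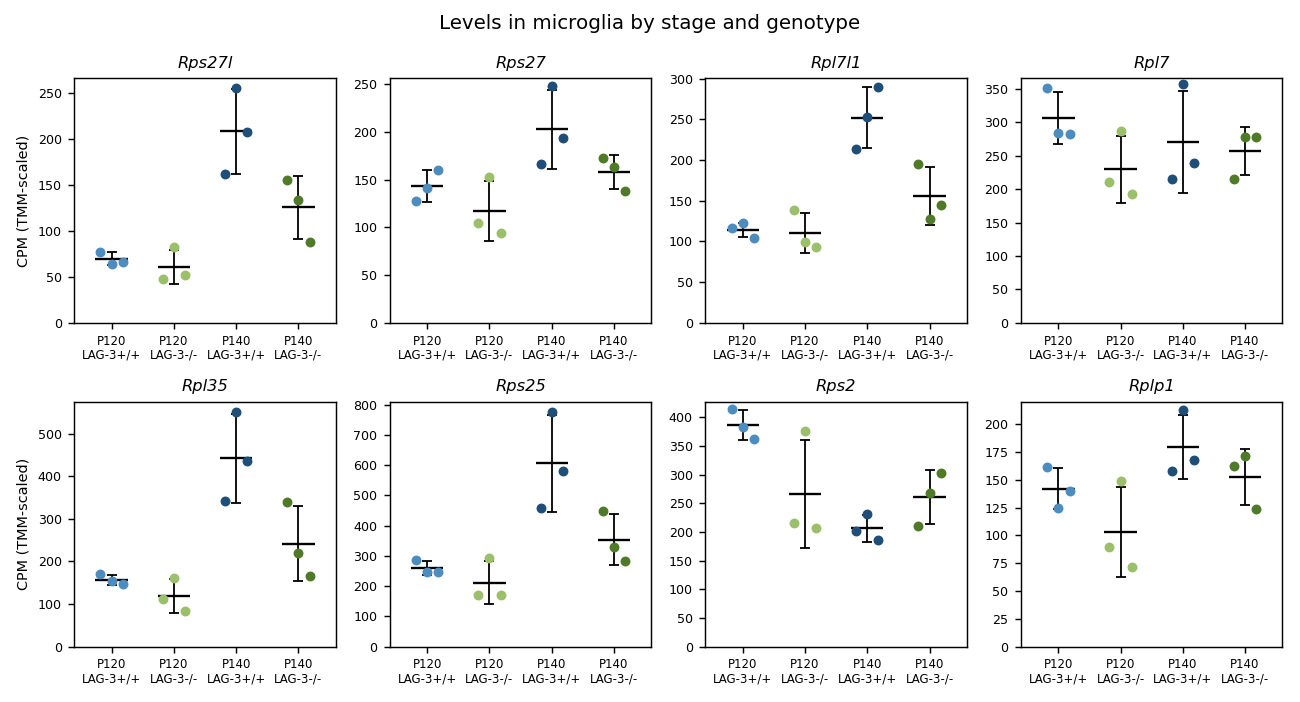
Levels of 8 ribosomal protein genes in microglia by stage and LAG-3 genotype, in TMM-scaled CPM on the vertical axis. Points are libraries, lines are means and bars are SD. Rps27l, Rpl7l1, Rpl35 and Rps25 have their highest means in P140 LAG-3+/+ microglia, Rps2 has its highest mean in P120 LAG-3+/+ microglia, and 1 P120 LAG-3-/- library lies above the other libraries of that group in every panel but that of Rpl7l1, where another does.

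In the P140 cord, every member tested was higher in LAG-3-/- than in LAG-3+/+ mice. All 81 rose in edgeR's test, against 23.1% of all genes called higher and 23.9% lower. Log2 fold changes ran from 0.34 to 1.62 with a median of 0.81 against 0.00 over all genes, and 18 exceeded 1. Among all 17702 genes, 773 were called higher with a log2 fold change above 1. The medians were 0.82 for the small and 0.80 for the large subunit. Without overlap between genotypes, 72 of 81 were higher and none lower, against 25.4% and 26.1% of all genes, and 72 were also higher with library totals, against 19.3%.

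Rps4l, the autosomal paralog of Rps4x, had the smallest adjusted p. It measured 18.6, 19.5 and 21.6 CPM in LAG-3+/+ and 40.3, 47.3 and 35.7 CPM in LAG-3-/- cord (log2 fold change 1.05 ± 0.13, adjusted p = 0.000305, edgeR). Rps4x rose by 0.46 ± 0.15 (adjusted p = 0.0301, edgeR). Rps19, whose human gene is mutated in Diamond-Blackfan anaemia, measured 73.1, 75.5 and 78.7 against 214, 177 and 132 CPM, without overlap (log2 fold change 1.21 ± 0.16, adjusted p = 0.000434, edgeR). Rps12, whose level is uncertain because most such counts were on its copies, as given above, rose by 1.19 ± 0.16 (adjusted p = 0.000476, edgeR). Rpl5 of the 5S particle measured 20.3, 22.4 and 20.3 against 40.1, 37.1 and 32.8 CPM, also without overlap (log2 fold change 0.80 ± 0.11, adjusted p = 0.000551, edgeR), and its partner Rpl11 rose by 0.95 ± 0.18. In all of these, LAG-3-/- replicate 3 was the lowest library of its group.

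The largest change was that of Rps27, from 2.24, 3.61 and 3.62 CPM to 11.9, 9.31 and 7.99 CPM. These did not overlap, and the log2 fold change was 1.62 ± 0.23 (adjusted p = 0.000551, edgeR). Most counts on the pair Rps27 and Rps27rt in the cord were on Rps27rt, as given above, and with such copies added the log2 fold change was 0.82 (adjusted p = 0.0508, edgeR). Rps27l rose by 0.48 ± 0.17 (adjusted p = 0.0480, edgeR). The other stalk and ubiquitin fusion genes rose too, Rplp1 from 230, 219 and 253 to 694, 596 and 387 CPM (log2 fold change 1.26 ± 0.19), Rplp2 by 0.97 ± 0.17, Rplp0 by 0.59 ± 0.15, Rps27a by 1.18 ± 0.17 and Rpsa by 0.86 ± 0.14. Rpl22l1 rose by 1.41 ± 0.20 beside 0.54 ± 0.14 for Rpl22, and Rpl7l1 by 0.34 ± 0.11 beside 0.55 ± 0.13 for Rpl7. Of these pairs, Rps27 and Rpl7 had larger estimates than their paralogs here and smaller ones from P120 to P140, and the differences within pairs were not tested.

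Several measures moved with the cord result. Oligodendrocyte markers, summed over 5 genes, were at 21500 to 29680 CPM in LAG-3-/- against 15180 to 16490 CPM in LAG-3+/+ cord. Astrocyte markers (4 genes) were at 7032 to 11520 against 12230 to 14060 CPM and microglia markers (8 genes) at 787 to 1076 against 1102 to 1385 CPM. Neuron markers (6 genes) overlapped, at 3464 to 3971 against 2718 to 3834 CPM. Mitochondrially encoded counts were 7.99% to 14.8% against 4.60% to 6.78%. The parts of cell composition and RNA quality in the difference were not tested.

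**Figure D4:**
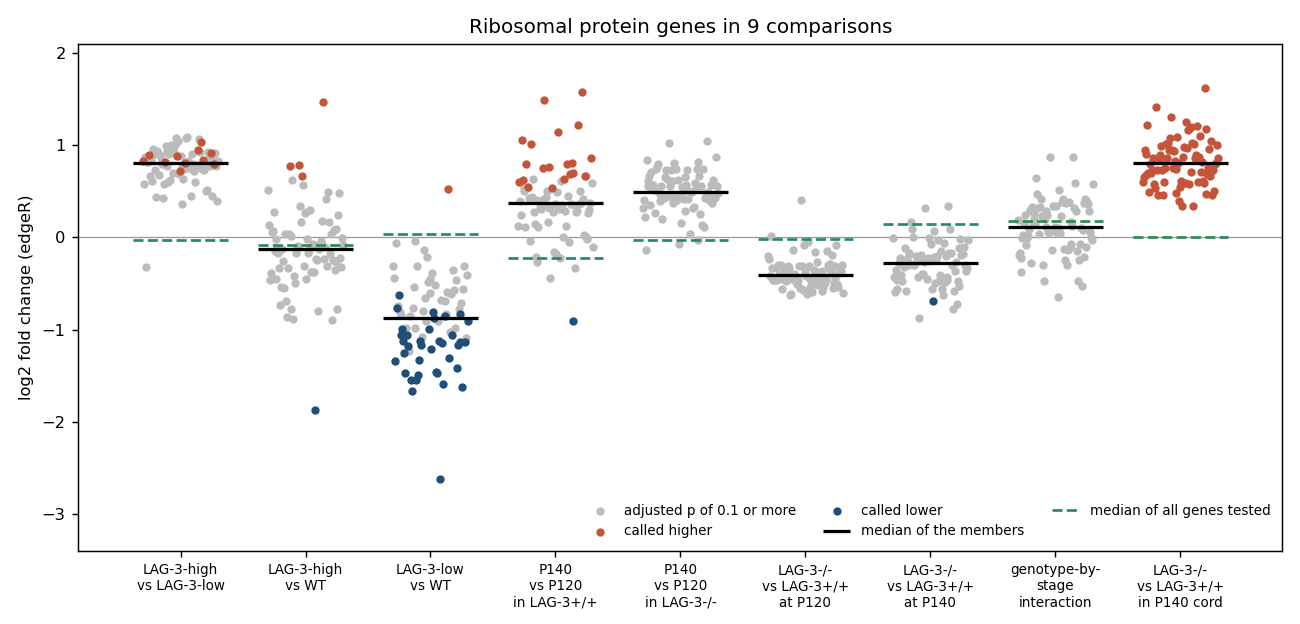
Log2 fold changes (vertical axis, edgeR) of the tested ribosomal protein genes, called members, in 9 comparisons. Each point is a gene, colored where called at an adjusted p below 0.1, the solid line is the members' median and the dashed line the median of all genes tested. Rpl39l, with estimates of -6.03, 7.19 and 6.78 from few counts, lies outside the axis in 3 stage comparisons. All members but 1 lie above 0 in LAG-3-high against LAG-3-low microglia, all lie above 0 in the cord, and all but 1 lie below 0 in LAG-3-low against WT microglia.

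Ribosomal protein messages are short, and the libraries differed in how counts depended on length. In the LAG-3-sorted table the tested members had annotated transcripts with a median length of 1096 bases, against 3451.5 for other protein-coding genes. Their transcripts ran from 382 bases (Rps28), 453 (Rps21) and 460 (Rps12) to 4122 (Rpl31), 5182 (Rps15a) and 6111 (Rpl37), while coding lengths ran only from 75 (Rpl41) to 1257 bases (Rpl4), without the stop codon, with a median of 462. In the cord, other protein-coding genes with coding sequences under 300 bases had a median log2 fold change of 0.61 and those of 3000 bases and over -0.47. The members had 0.84 under 300 bases, 0.87 from 300 to under 600, 0.67 from 600 to under 900 and 0.59 from 900 to under 1500, against 0.61, 0.45, 0.23 and 0.06 for others of the same coding length. With an offset per library for transcript length and GC content, 41 members were called higher, against 26.2% of all genes called in either direction, and the median was 0.34. With coding length in its place, 48 were called, against 32.1%, and the median was 0.38. Rpl22, Rps27l, Rpl7l1 and Rps4x then had estimates of -0.05, -0.07, -0.08 and -0.03 with transcript length, while Rps27 kept 1.07.

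Other short genes had larger estimates than the members from P120 to P140 in LAG-3+/+ microglia. Other protein-coding genes had medians of 1.03, 0.87, 0.56 and 0.08 in the same 4 bins of coding length and -1.56 at 3000 bases and over, against 0.23, 0.37, 0.37 and 0.54 for the members. With the offset for coding length and GC content, 5 members rose and 13 fell, against 19.1% of all genes called in either direction, and the median was -0.25. Rps27l and Rpl35 stayed called higher, each at 0.82, and Rps2 stayed called lower at -1.04. In LAG-3-high against LAG-3-low microglia, other protein-coding genes had medians of 0.30, 0.24, 0.16 and 0.08, against 0.93, 0.79, 0.79 and 0.81 for the members. The median there was 0.71 with the coding length offset, with 5 members called against 4.08% of all genes, and Rps2, Rpl4, Rpl3 and Rplp0 were not called. In LAG-3-low against WT microglia the members had -0.80, -1.06, -0.74 and -0.22 and the others -0.61, -0.34, -0.06 and 0.17. These are descriptions, and the cause of the length dependence was not tested.

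**Figure D5:**
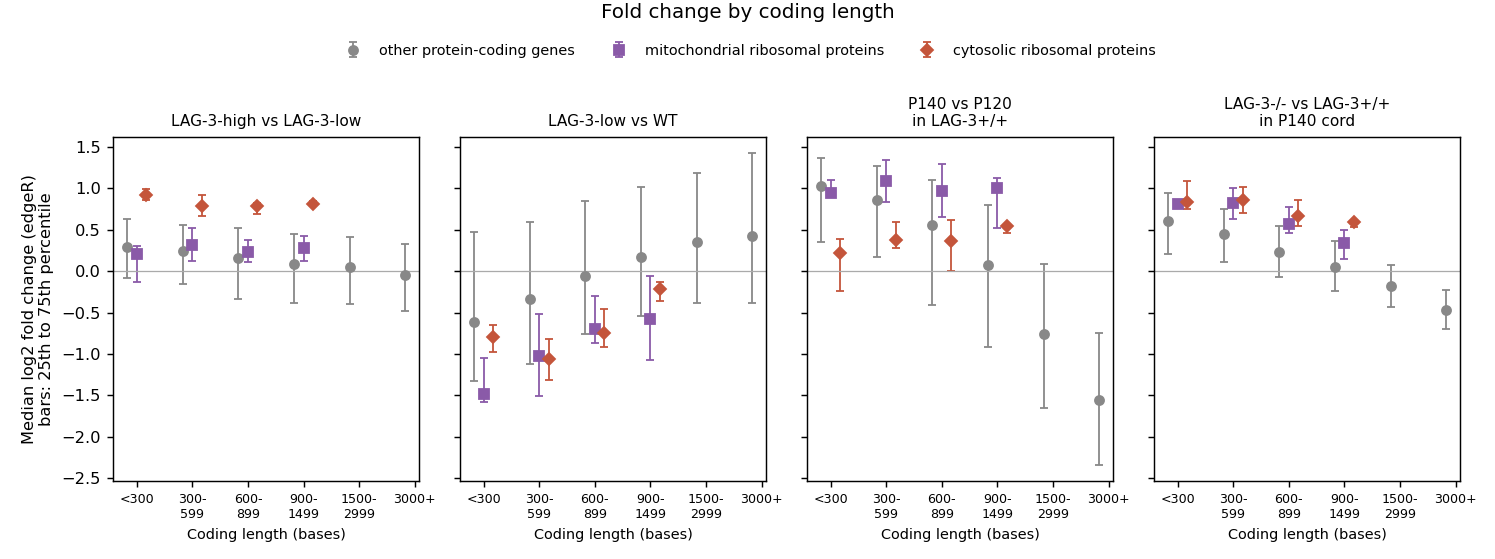
Median log2 fold change (vertical axis, edgeR) by coding length in bases (horizontal axis) for cytosolic ribosomal protein genes, mitochondrial ribosomal protein genes and other protein-coding genes in 4 comparisons. Bars run from the 25th to the 75th percentile of genes. Members lie above other genes of their length in LAG-3-high against LAG-3-low microglia and in the cord, and below them at under 900 bases from P120 to P140 in LAG-3+/+ microglia.

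Mitochondrial ribosomal protein genes, whose products form the organelle's own ribosomes, gave another pattern. In LAG-3-high against LAG-3-low microglia none of 78 was called in edgeR's test, with a median of 0.29. At an unadjusted p below 0.05, 3 of them were higher and none lower, against 870 and 1118 of all 16508 genes. Between stages in LAG-3+/+ microglia 48 rose and none fell, against 11.9% and 15.5% of all genes, with a median of 1.06 beside 0.37 for the cytosolic genes. At P140, 10 fell in LAG-3-/- microglia and none rose, against 3% and 7.22% of all genes, with a median of -0.66. In the cord 65 rose and none fell, against 23.1% and 23.9% of all genes, with a median of 0.64. The differences between the families were not tested.

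Other messages with a 5′ TOP start or a part in translation were described with a list of 22 genes. In LAG-3-high against LAG-3-low microglia 4 rose, among them the elongation factors Eef1a1 (1.16, adjusted p = 0.0171) and Eef2 (0.86, adjusted p = 0.0264) and the initiation factor Eif4b (0.9995, adjusted p = 0.0203, all edgeR), and none fell, against 1.59% and 2.8% of all genes, and the median was 0.59. In LAG-3-low against WT microglia 6 fell and none rose, against 12.9% and 12% of all genes, with a median of -0.58. Between stages in LAG-3+/+ microglia 7 rose and 2 fell, the latter Eef2 (-0.88, adjusted p = 0.0113) and Eif4a2 (-0.51, adjusted p = 0.0402, both edgeR), against 11.9% and 15.5% of all genes. In the cord 13 rose and 1 fell, against 23.1% and 23.9% of all genes, with a median of 0.53.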

How the data were processed

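RNA from sorted microglia and from whole lumbar cord was sequenced, and the authors deposited 3 tables of estimated counts per gene, which served as the input here. The submitters' processing notes name Trim Galore 0.6.7, Salmon 1.9.0, tximport, R 4.2.1 and build GRCm39, and the annotation release is not given in the sources used here. Salmon divides reads that match several transcripts between them, so members with near-identical copies are uncertain.

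Counts were rounded to whole numbers and fitted per table, in R 4.3.3, with edgeR 4.0.16 (filterByExpr with a minimum count of 10 and a minimum total of 15, TMM factors, robust quasi-likelihood test over all groups of the table). P-values were adjusted by Benjamini-Hochberg over all genes of a comparison, and a gene was called at an adjusted p below 0.1. Log2 fold changes are given with their standard errors. Scripts were tested on simulated data. Depth was 9403286 to 22850356 counts in the 14 LAG-3-sorted, 23981240 to 49512341 in the 12 stage and 19429873 to 26994340 in the 6 cord libraries, and it limits the precision of members with few counts. No library was left out.

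The members and lists were chosen with earlier results of these data known. Values were given for the 4 members with the smallest adjusted p in each direction, for the stalk, 5S particle, Rpsa, Rps27a and paralog genes, and for members with the highest and lowest levels. Other members named were chosen after their values were seen. Mitochondrial ribosomal proteins, TOP messages, ribosome biogenesis and TORC1 and MYC genes were described by counts. Alternatives were DESeq2 1.42.0, its size factors in edgeR (RLE), TMM factors without the members, no filter, the replicate number as a block, sex as a covariate, an offset for transcript length and GC content, only the groups compared, a minimum absolute log2 fold change of 1 and each library left out. An offset for coding length and GC content, counts of copies (at least 90% identity over at least 50% of the transcript) added to their member, and library totals without TMM factors were added after seeing the data. Gene coordinates are those of GENCODE on GRCm39. Values of a few single genes are not reported here.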

Additional observations from a re-analysis of the deposited data

How the results depend on the processing

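More members were called higher than lower under every alternative for LAG-3-high against LAG-3-low microglia and for the cord, and more lower than higher for LAG-3-low against WT microglia, while the counts moved widely and single members turned as given below. The cause of these moves was not tested. The share of all genes called also changed with the setting, so a count given here without that share does not single out the members. For LAG-3-high against LAG-3-low, 11 members were called, and 4 with RLE size factors, 34 with the transcript length and GC offset, 5 with the coding length and GC offset, 2 without TMM factors, 76 with only the groups compared, 1 with a minimum absolute log2 fold change of 1 and 3 to 6 with 1 library left out. For LAG-3-high against WT, 5 were called, and 35 (23 higher and 12 lower) with the transcript length offset, 16 (2 and 14) with the coding length offset, 8 (2 and 6) without TMM factors, 3 with only the groups compared, 2 with the minimum fold change and 3 to 15 with 1 library left out, mostly lower without WT replicate 2 (15) or 3 (8). For LAG-3-low against WT, 38 were called, and 16 without the filter, 66 with the coding length offset, 2 with only the groups compared and 13 to 72 with 1 library left out. Between stages in LAG-3+/+ microglia, 21 were called, and 12 without the filter, 18 (5 higher and 13 lower) with the coding length offset, 14 (4 and 10) without TMM factors, 6 with the minimum fold change and 9 to 26 with 1 library left out. In LAG-3-/- microglia, 5 were called by DESeq2. Between genotypes at P140, where 1 was called lower, DESeq2 called 13 and RLE 3 lower, the coding length offset called 1 higher, the setting without the filter, with sex as a covariate, without TMM factors, with only the groups compared or with the minimum fold change called 0, and 0 to 9 were called with 1 library left out. For the cord, 81 were called, and 41 with the transcript length offset, 48 with the coding length offset, 18 with the minimum fold change and 71 to 81 with 1 library left out. Signs of single members turned for Rpl7l1 in LAG-3-high against LAG-3-low (-0.0168 without TMM factors), for Rpl37a (-0.41, transcript length offset), Rpl3 (-0.43) and Rpl4 (-0.46, both coding length offset) in LAG-3-high against WT, for Rps2 (-0.49, coding length offset) in LAG-3-low against WT, and for Rps27 from P120 to P140 in LAG-3+/+ microglia (-0.34 with the coding length offset and -0.0109 without TMM factors). Rpl3 in LAG-3-low against WT, at -0.04, was at 0.0128 with DESeq2, 0.0131 with RLE, 0.12 without the filter, 0.0466 without TMM factors, 0.0091 with only the groups compared, -0.155 to 0.27 with 1 library left out, the highest without WT replicate 1, and 0.0176 without LAG-3-low replicate 3. In the cord, Rpl22 (-0.0497), Rps27l (-0.0672), Rpl7l1 (-0.0804) and Rps4x (-0.0268) turned with the transcript length offset.

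The labels do not say whether libraries with the same number share an animal or day, and their deviations from the group means correlated at -0.119 to 0.0674, so the numbers were not used as pairs. With the replicate number as a block, 5 members were called in LAG-3-high against LAG-3-low, 3 in LAG-3-high against WT, 6 in LAG-3-low against WT, 19 from P120 to P140 in LAG-3+/+ microglia, 0 between genotypes at P140 and 79 in the cord. The shares of all genes called with the block are not given here, so these counts do not single out the members.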

Other observations

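Ribosome biogenesis factors, which assemble the subunits in the nucleolus, were described with a list of 34 genes. In LAG-3-high against LAG-3-low microglia only nucleolin, Ncl, was called, at 0.61 on the log2 scale (adjusted p = 0.0684, edgeR), against 1.59% of all genes, and the list's median was 0.19. From P120 to P140 in LAG-3+/+ microglia 12 rose and 5 fell, against 11.9% and 15.5% of all genes. Nop16, a factor of large subunit assembly, rose by 1.73 (adjusted p = 0.00527, edgeR), and Mybbp1a, a nucleolar regulator of transcription, fell by 3.94 (adjusted p = 0.0111, edgeR). In the cord 12 rose and 6 fell in LAG-3-/- mice, against 23.1% and 23.9% of all genes, among them Polr1c, a subunit of RNA polymerases I and III, at 0.75 (adjusted p = 0.000582) and Utp20, a factor of small subunit assembly, at -0.80 (adjusted p = 0.00115, both edgeR). Beside them, all 81 ribosomal protein genes tested rose in the cord. Estimates depended on length in these comparisons, as given above, and the part of length in the values of this list was not tested.

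Genes that act on ribosomal protein synthesis through TORC1 or MYC were described with a list of 18 genes. From P120 to P140 in LAG-3+/+ microglia the translational repressor Eif4ebp1 (1.82), the TORC1 activator Rheb (1.22) and Myc (0.93) rose, and Larp4 (-1.74, adjusted p = 0.00497, edgeR), Rptor (-1.76), Tsc2 (-2.34) and Mxd1 (-1.57) fell, which is 3 and 4 of 17 tested against 11.9% and 15.5% of all genes. In LAG-3-/- against LAG-3+/+ microglia at P140, Larp4 (1.21) and Rptor (1.74) rose and none fell, against 7.22% and 3% of all genes. In the cord 2 rose, Akt1s1 and Rheb (both 0.46), and 9 fell, among them Larp4 (-0.72), Mtor (-0.64) and Rps6kb1 (-0.45), against 23.1% and 23.9% of all genes. The median transcript length of the list was 4651 bases in the cord, against 3105 over all genes tested there, and the part of length in these values was not tested.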
